A study of Mus musculus with 18 samples.

Results

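Zfp genes are the mouse genes named Zfp with a number, most of which encode proteins with zinc fingers. All genes of the deposited tables whose symbol begins with Zfp and a digit were taken, which gave 80 of the 8202 genes found in at least 1 of the 3 stage tables. Of these, 67 were in the E2.5 table, 59 in the E3.75 table and 55 in the E4.5 table. RNA came from CD1 mouse embryos that were Oct4 null (-/-) or wild type (+/+) for Pou5f1, the gene of the pluripotency factor Oct4. Each genotype has 3 libraries at each of 3 stages, 18 in all, dated by embryonic day as E2.5, E3.75 or E4.5, a span that runs from the morula to the blastocyst about to implant. Embryos had been flushed from oviducts or uteri. The series title asks which genes depend on Oct4 in vivo. The samples are described as 3 embryos for a genotype at a time point. Which part of the gene is missing and whether maternal Oct4 was also removed are not given in the labels.

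In a classical C2H2 zinc finger, a pair of cysteines and a pair of histidines hold a zinc ion, and tandem fingers read DNA, RNA or protein. Many mammalian Zfp proteins also carry a KRAB domain, which recruits the co-repressor Trim28 and heterochromatin enzymes and is known for silencing retroelements and guarding imprints in early embryos. Others act outside transcription, in RNA processing, ribosome assembly or ubiquitin transfer. The name is shared by history rather than by descent, so the group mixes several families.

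Levels are CPM, reads per 1000000 reads of the genes in the table, with the reads placed mostly in the last kilobase of each transcript. Depth was 1361903 to 1922432 reads in Oct4 null and 868033 to 1233635 reads in wild type libraries at E2.5. It was 865017 to 1437690 reads in Oct4 null and 531784 to 1177830 in wild type libraries at E3.75. At E4.5 it was 364936 to 1343054 reads in Oct4 null and 515745 to 1088324 in wild type libraries. Pou5f1, the targeted gene, was lower in null embryos at E2.5, at 968 ± 40.1 against 1875 ± 194 CPM (SD, n = 3 each; adjusted p = 0.00105, limma), and at E3.75 (adjusted p = 8.57e-05, limma). At E4.5 it averaged 111 ± 26.9 CPM in null and 231 ± 45.9 CPM in wild type embryos (adjusted p = 0.125, limma). Library 3 of each group (at E4.5 in wild type, the last column) could be written nearly as a weighted mean of its 2 partners. What this left unexplained was 1.11 to 1.31 times the variance of read sampling, against 1.42 to 3.15 times when the first or second library was put in its place, so p-values over 3 libraries can be too small. Genotype calls below, of Zfp genes and of most genes named beside them, are therefore also given for libraries 1 and 2 alone. This was done where columns carry numbers, and is not given for Hba-a1, Khdc3, Tcl1 and Tspan8 at E3.75. Pou5f1 passed with libraries 1 and 2 alone (adjusted p = 0.0195 at E2.5 and 2.07e-05 at E3.75, limma). At E3.75 and E4.5 the tables held 5 of 6 epiblast markers (Sox2 was not in them), 7 of 7 trophectoderm markers and 8 and 7 of 8 primitive endoderm markers. The maternal blood globins Hba-a1 and Hbb-bt were in every table.

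Zfp207, a spindle assembly factor that binds the checkpoint protein Bub3, was the best expressed member at every stage. At E2.5 it had 670.4, 546.7 and 604.4 CPM in Oct4 null libraries and 499.6, 657.8 and 590.9 CPM in wild type libraries. At E3.75 the values were 613.9, 641.2 and 628.8 CPM in null and 526.5, 578.2 and 626.7 CPM in wild type libraries. At E4.5 they were 485.0, 553.8 and 515.2 CPM in null and 495.4, 475.0 and 459.4 CPM in wild type libraries. The genotypes overlapped at each stage, and the mean level stood at percentile 96.2 of its table at E2.5, 95.8 at E3.75 and 94.97 in E4.5 embryos.

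Zfp706, a very small protein of 76 residues known from mouse embryonic stem cells as a factor needed to leave self-renewal, came second at every stage. The mean over 6 libraries was 545 ± 72.5 CPM at E2.5, 378 ± 13.4 CPM at E3.75 and 235 ± 24.4 CPM in E4.5 embryos. At E2.5 its libraries ranged from 435.5 to 630.5 CPM and overlapped with the 499.6 to 670.4 CPM of Zfp207, so the order of the top pair was not separated there. At E3.75 and E4.5 every library had more Zfp207 than any library had Zfp706. The top 3 members together held 35.3% of the summed Zfp CPM at E2.5, 43.5% at E3.75 and 36.0% in E4.5 embryos.

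Zfp42, also called Rex1 and a standard marker of pluripotent cells, had rank 10 at E2.5 and rank 3 at E3.75 and E4.5. At E2.5 it had 72.7, 88.4 and 88.6 CPM in null and 68.7, 87.6 and 89.2 CPM in wild type libraries. At E3.75 it had 253.2, 230.4 and 195.5 CPM in null and 270.8, 230.9 and 263.9 CPM in wild type libraries. At E4.5 the null libraries had 134.3, 136.2 and 145.9 CPM and the wild type libraries 174.9, 160.9 and 168.1 CPM. All 6 libraries of E3.75 lay above all 6 of E2.5, and all 6 of E4.5 lay between those 2 stages. It was the sole member of the 43 shared by all tables that lay wholly above its E2.5 range at E3.75 (2.33%). Of the 5430 genes shared by all tables, 14.2% did.

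Zfp296, a partner of Klf4 that helps reprogramming, took the opposite course. It averaged 338 ± 14.7 CPM over the 6 libraries of E2.5, where it had rank 3, 86.9 ± 10.7 CPM at E3.75 and 46.2 ± 7.44 CPM at E4.5. In null embryos it stood at 318.7, 354.8 and 335.8 CPM at E2.5 and 43.8, 44.1 and 59.6 CPM at E4.5. In wild type embryos it stood at 355.6, 334.1 and 328.3 CPM at E2.5 and 46.0, 36.8 and 46.9 CPM at E4.5. No library of a later stage reached the range of an earlier one, in either genotype.

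**Figure D1:**
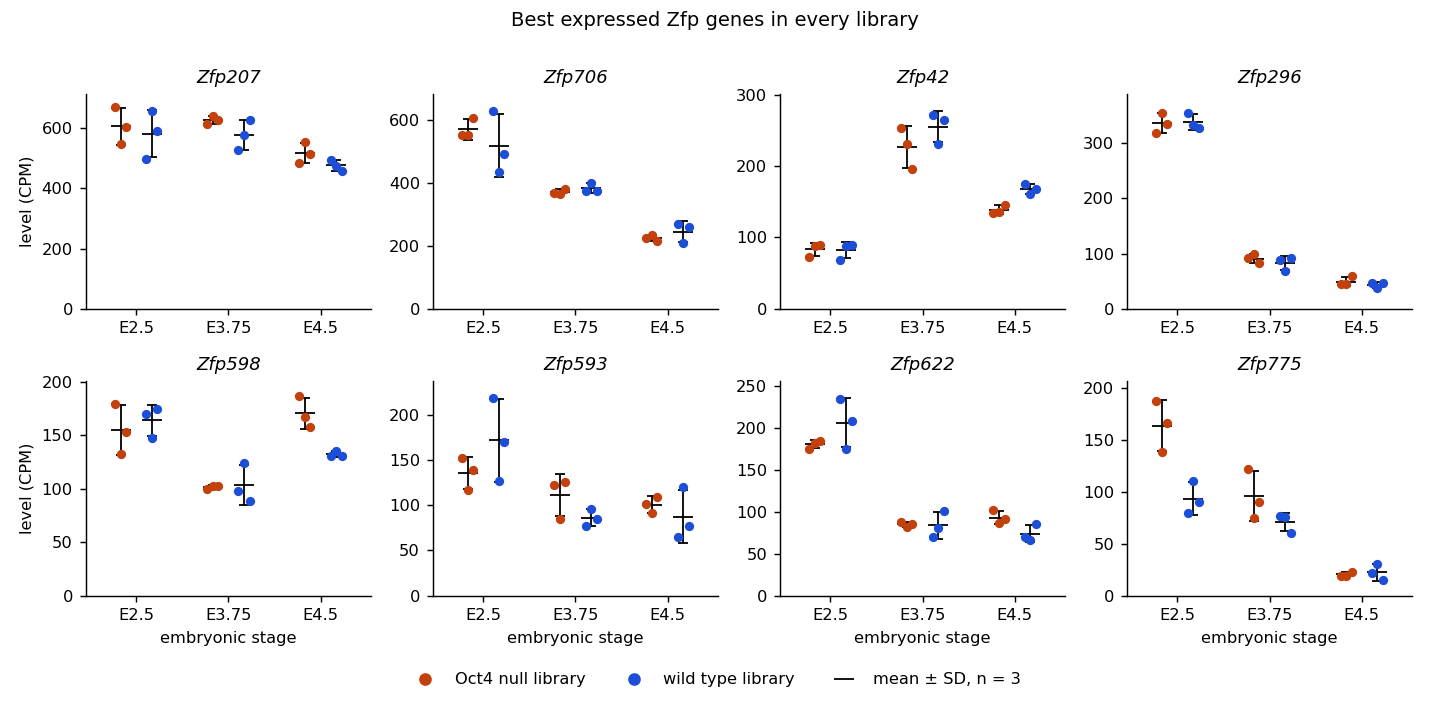
Level in CPM (vertical axis) of 8 of the best expressed members in each library at each stage (horizontal axis), Oct4 null left of wild type, with mean and SD of 3 libraries. Zfp42 peaks at E3.75 at 241 CPM over 6 libraries, Zfp296 is highest at E2.5 at 338 CPM, and Zfp775 is the panel in which the genotypes stand apart at E2.5.

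At E2.5, ranks 4 to 6 were held by proteins that act on ribosomes. Zfp622, whose yeast relative Rei1 serves assembly of the large ribosomal subunit, had 193 ± 23.3 CPM at E2.5, 84.3 ± 10.2 CPM at E3.75 and 83.4 ± 13.3 CPM in E4.5 embryos (SD over 6 libraries). Zfp598, the ubiquitin ligase that marks collided ribosomes, had 160 ± 18, 102 ± 11.7 and 151 ± 22.9 CPM at those stages. Zfp593, a relative of the yeast ribosome export factor Bud20, had 154 ± 36.7, 98.5 ± 20.9 and 94.0 ± 20.7 CPM. All 6 libraries of E4.5 lay above all 6 of E3.75 for Zfp598, and the ranges of Zfp593 overlapped between every pair of stages. Zfp593 ends where the gene E130218I03Rik lies on the other strand, and whether counting used the strand is not given in the sources used here, so its value is uncertain.

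The remaining top 10 members were less well characterised. At E2.5 and E3.75 they were Zfp775 (129 ± 42.8 and 83.5 ± 21.3 CPM), Zfp655 (114 ± 8.37 and 58.6 ± 5.93 CPM) and Zfp385c (98.1 ± 29.8 and 75 ± 7.42 CPM). At E4.5 Zfp385c had 105 ± 12.8 CPM, and Zfp664 (56.8 ± 15.5 CPM), Zfp954 (56.5 ± 29.4 CPM) and Zfp64 (52 ± 10.9 CPM) completed the list. The last places did not differ beyond their spread, since Zfp664, Zfp954 and Zfp64 ranged over 35.0 to 75.3, 38.6 to 115 and 40.5 to 67.9 CPM. Zfp775 and Zfp385c overlap Gm38804 and Nkiras2 on the other strand at their ends and are uncertain for the same reason as Zfp593. Where a transcript length was known it exceeded 1000 bases for every top 10 member. Dividing by a length capped at 1000 bases therefore could not change the order of these, and is no check of it. No length was known for Zfp655, Zfp385c and Zfp64. In all, 20 of the 80 members have another gene at their 3′ end, among them Zfp335, Zfp91, Zfp566, Zfp865, Zfp322a and Zfp961, and are uncertain in the same way.

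Most Zfp genes were low. Their median level was 28.1 CPM at E2.5, 20.3 CPM at E3.75 and 22.6 CPM in E4.5 embryos, beside 45.5, 41.4 and 41.0 CPM over all genes of the same tables. A mean under 20 CPM was found for 37.3% of members at E2.5, 49.2% at E3.75 and 38.2% in E4.5 embryos, against 23.0%, 24.8% and 24.8% of all genes. The median read count of a member in a library was 40.5 at E2.5, 20 at E3.75 and 18 in E4.5 embryos. Zfp414, Zfp777 and Zfp341 had 0 reads in Oct4 null library 1 of E4.5, where 1 read was worth 2.74 CPM.

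The summed Zfp level was highest at E2.5. It was 4145 to 4344 CPM in null and 3963 to 4214 CPM in wild type libraries at E2.5, 2768 to 2873 CPM in null and 2712 to 2887 CPM in wild type libraries at E3.75, and 2452 to 2610 CPM in null and 2315 to 2441 CPM in wild type libraries at E4.5. Over the 43 members found in all tables the sum was 3592 to 3916 CPM at E2.5, 2460 to 2649 at E3.75 and 2156 to 2431 in E4.5 embryos. The tables were scaled separately, so stages are described and not tested. Rescaling to the reads of the 5430 genes in all tables left the same order, at 3717 to 4071, 2540 to 2717 and 2242 to 2527 CPM.

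Of these 43 members, 20 had all 6 libraries of E3.75 below all 6 of E2.5 (46.5%), while 24.7% of the 5430 shared genes did. The 20 include Zfp296, Zfp622, Zfp598, Zfp655, Zfp706 and Zfp410, a factor known in mouse and human cells for activating Chd4. Zfp410 averaged 68.9 ± 18.4 CPM at E2.5 and 13.4 ± 5.36 CPM at E3.75 over 6 libraries. Chd4 itself had 82.3 ± 16.3 CPM in null and 105 ± 12.5 CPM in wild type embryos at E2.5, and 93.2 ± 5.76 CPM in null and 109 ± 17.5 CPM in wild type embryos at E3.75 (SD, n = 3 each). The median member stood 0.81 lower on the log2 scale of mean CPM at E3.75 than at E2.5, and the median shared gene 0.16 lower.

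At E4.5, Zfp524, Zfp598, Zfp64, Zfp664 and Zfp7 lay wholly above their E3.75 ranges, 5 of 43 members, where 9.58% of the shared genes did. Zfp296, Zfp42, Zfp655, Zfp706 and Zfp775 lay wholly below, also 5 of 43, where 16.3% of the shared genes did. Zfp664 averaged 13.1 ± 3.36 CPM at E2.5, 26.3 ± 6.97 at E3.75 and 56.8 ± 15.5 in E4.5 embryos as a mean of 6 libraries. Zfp524 averaged 12.8 ± 4.66, 15.9 ± 5.84 and 48.2 ± 21.6 CPM, and is uncertain because Gm44973 lies at its end on the same strand. These genes were named after their stage values were seen.

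Each listed gene reached at least 10.3 CPM in 3 of the 6 libraries of its table, so leaving or entering a table was read as crossing that level. The level was taken from the listed values. A gene outside a table has no value there, so whether it was switched off is not known. From E2.5 to E3.75, 17 members left (25.4% of 67, against 16.8% of all genes) and 9 entered (15.3% of 59, against 11.4%). The best expressed that left were Zfp335, needed for brain growth, at 34.9 ± 13 CPM, Zfp668 at 21.7 ± 8.87, Zfp566 at 20.5 ± 6.41, Zfp691 at 19.9 ± 4.37, Zfp280b at 19.3 ± 7.03 and Zfp703 at 19.0 ± 7.62 CPM (SD, 6 libraries). Those that entered were led by Zfp281 at 21.3 ± 9.22 CPM, then Zfp282 at 17.2 ± 7.96, Zfp819 at 15.1 ± 8.12, Zfp148 at 13.9 ± 6.04, Zfp592 at 11.7 ± 4.70 and Zfp292 at 11.4 ± 3.20 CPM. The median level was 14 CPM for those that left and 11.7 CPM for those that entered, close to the level that decides listing.

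From E3.75 to E4.5, 12 members left (20.3% of 59, against 11.5% of all genes) and 8 entered (14.5% of 55, against 10.1%). Leaving were Zfp949 at 23.0 ± 7.01 CPM, Zfp281, Zfp12 at 18.2 ± 6.42, Zfp428 at 16.5 ± 9.06, Zfp638, which binds RNA and silences retroviral DNA, at 16.3 ± 7.08, and Zfp512 at 15.1 ± 8.26 CPM, with 6 lower ones. Entering were Zfp335 again at 21 ± 11.5 CPM, Zfp865 at 18.1 ± 12.4, Zfp553 at 16.2 ± 5.41, Zfp444 at 14.8 ± 4.38, Zfp628 at 10.6 ± 5.21 and Zfp516 at 9.73 ± 3.61 CPM, with 2 lower ones. Zfp281 was thus listed at E3.75 alone, as were Zfp819, Zfp148, Zfp292 and Zfp236. In all, 43 members were in all 3 tables, 13 at E2.5 alone, 5 at E3.75 alone and 4 at E4.5 alone.

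**Figure D2:**
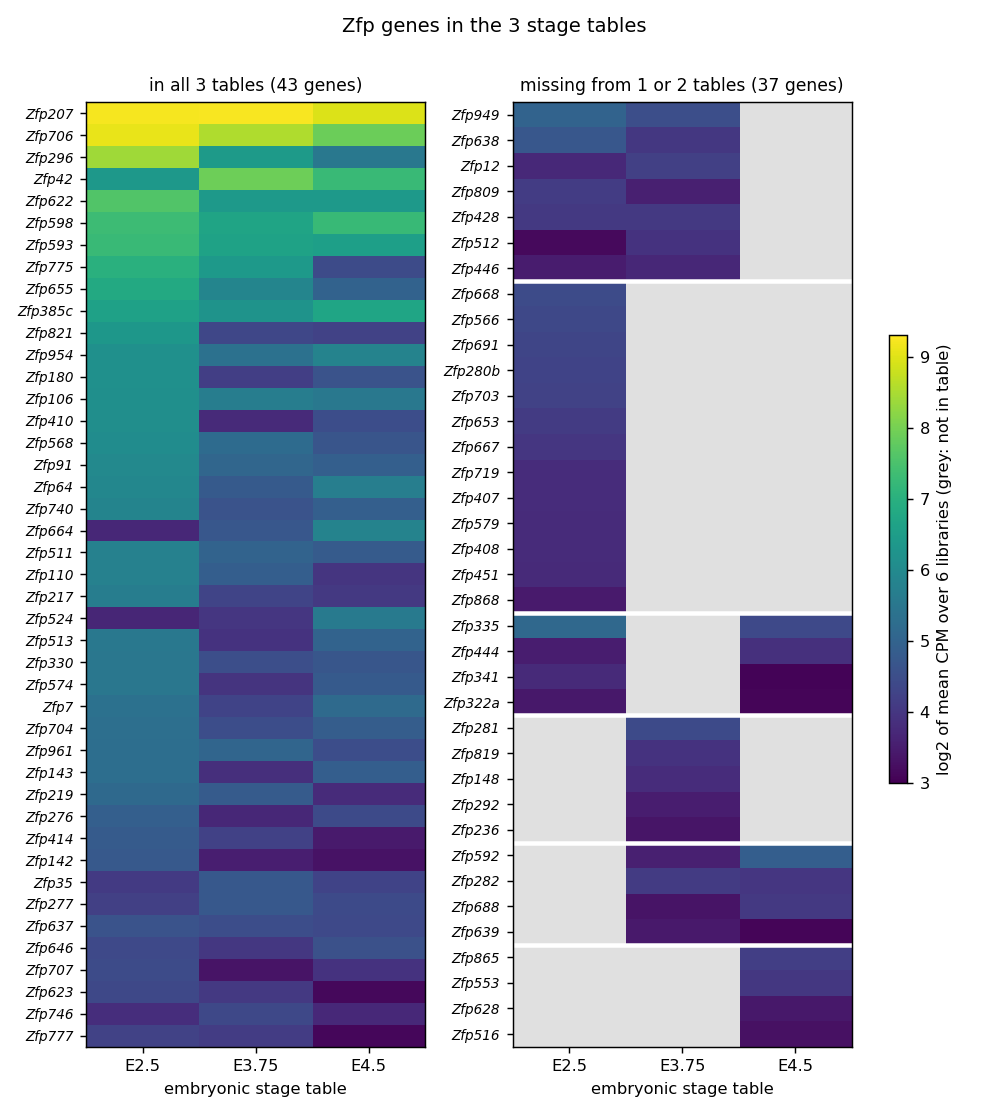
Mean level of each of the 80 members (rows) over the 6 libraries of each stage table (columns), as log2 CPM, grey where the table does not list the gene. The left panel holds the 43 members of all tables from Zfp207 downwards and the right panel the other 37, grouped by the tables that list them. The block of 13 genes listed at E2.5 alone is the largest of the right panel.

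By role, 13 of 17 genes in a list of pluripotency and early embryo factors were in at least 1 table, from Zfp706, Zfp42 and Zfp296 down to Zfp322a, at 10.51 ± 5.31 CPM at E2.5 and 8.42 ± 3.97 CPM at E4.5. Of 13 genes listed for RNA processing and translation, 6 were found, and of 3 for ubiquitin and signalling, Zfp91 and Zfp598. Of 12 KRAB proteins known for imprints and retroelements, Zfp568, Zfp809, Zfp819 and Zfp961 were found. Zfp568, which silences a placental Igf2 promoter, had 66.9 ± 16.2 CPM at E2.5, 37 ± 4.73 at E3.75 and 25.3 ± 5.87 in E4.5 embryos. Zfp809, which recognises the primer site of murine leukaemia viruses, had 17.3 ± 2.89 CPM at E2.5 and 11.8 ± 5.97 CPM at E3.75. The 4 listed cleavage stage genes, Zfp352 among them, and the 4 CCCH genes of the Zfp36 family were not analysed here.

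The number of fingers varied widely within the family. C2H2 patterns were counted in the GENCODE M21 coding sequences of all 80 members, with a median of 7 per protein and 36 in Zfp142. No such pattern was found in Zfp330 and Zfp703, and 1 each in Zfp428, Zfp593, Zfp598, Zfp704 and Zfp706. The 10 best expressed members had a median of 3 patterns at each stage, and the others a median of 8, 7 and 8 in the stages' order. Within the 10 the number ran from 1 to 11 at E2.5 and E3.75 and from 1 to 9 at E4.5, with 11 in Zfp775, 9 in Zfp664 and Zfp64 and 8 in Zfp954. A KRAB A box was found in 17 members. None was among the top 10 at E2.5 or E3.75, and Zfp954 was the only one at E4.5. KRAB members had median levels of 21.1, 18.2 and 16.6 CPM over the stages in order. Members in which no box was found had 30.2, 20.9 and 23.9 CPM. The search needed 8 of 9 conserved positions, so these can include proteins with a variant box. The best expressed KRAB member, Zfp954, reached 71.8, 40.7 and 56.5 CPM as a mean of 6 libraries, while their shared co-repressor Trim28 averaged 1256 ± 141 CPM in null and 1210 ± 185 CPM in wild type embryos at E2.5 (SD, n = 3 each). CPM of the 3′ end is not a measure of protein.

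**Figure D3:**
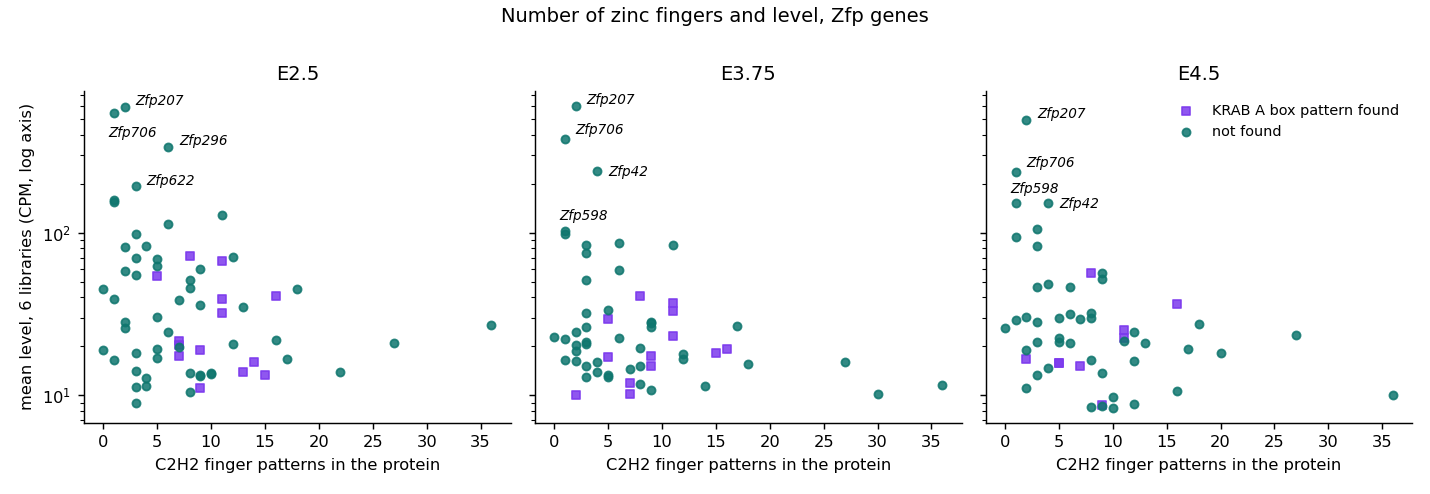
Mean level over 6 libraries in CPM (log axis) against the number of C2H2 patterns in the encoded protein, for the members of each stage table, with KRAB members as squares. The members above 150 CPM have 6 patterns or fewer at E2.5 and 4 or fewer at E3.75 and E4.5.

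Oct4 is known to bind the octamer ATGCAAAT, so the promoters of the members, 250 bases before to 50 bases after the start in the RefSeq table for GRCm38.p6, were searched for these letters on both strands. The table holds 76 promoters for 61 of the 80 members, and 4 of the 76 held the octamer (5.263%), each from another gene. The letters were found in 1.735% of all 32851 promoters of that length and in 1.515% of the 330 promoters of Zfp genes outside the tables. A match is a description of the letters and not a site. The 4 are shown because 3 of them belong to the best expressed members and the other to a gene that differed between genotypes at E3.75. They lie at chr8:43306960-43307259 on the minus strand (Zfp42), chr7:19577037-19577336 plus (Zfp296), chr11:80383029-80383328 plus (Zfp207) and chr7:24506837-24507136 plus (Zfp428). Capitals mark the octamer or its reverse complement, once in each promoter except that of Zfp428, which holds a pair 71 and 125 bases before the start.
Zfp42: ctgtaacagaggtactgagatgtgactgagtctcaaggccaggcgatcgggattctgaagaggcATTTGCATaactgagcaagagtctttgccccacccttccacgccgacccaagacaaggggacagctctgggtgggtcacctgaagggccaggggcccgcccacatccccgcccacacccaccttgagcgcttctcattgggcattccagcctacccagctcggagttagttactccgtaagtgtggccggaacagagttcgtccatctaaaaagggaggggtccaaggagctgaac
Zfp296: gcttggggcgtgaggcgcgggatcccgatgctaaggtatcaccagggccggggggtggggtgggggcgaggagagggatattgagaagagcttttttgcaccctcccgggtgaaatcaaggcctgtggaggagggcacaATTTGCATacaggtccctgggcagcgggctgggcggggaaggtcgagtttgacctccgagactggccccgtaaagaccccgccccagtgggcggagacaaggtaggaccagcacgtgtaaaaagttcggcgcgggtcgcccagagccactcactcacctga
Zfp207: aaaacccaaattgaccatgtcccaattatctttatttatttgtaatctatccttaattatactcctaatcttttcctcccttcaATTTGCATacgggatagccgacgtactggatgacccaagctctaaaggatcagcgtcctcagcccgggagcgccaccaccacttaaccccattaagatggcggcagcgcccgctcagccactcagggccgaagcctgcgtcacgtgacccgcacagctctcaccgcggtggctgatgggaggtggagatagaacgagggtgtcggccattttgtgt
Zfp428: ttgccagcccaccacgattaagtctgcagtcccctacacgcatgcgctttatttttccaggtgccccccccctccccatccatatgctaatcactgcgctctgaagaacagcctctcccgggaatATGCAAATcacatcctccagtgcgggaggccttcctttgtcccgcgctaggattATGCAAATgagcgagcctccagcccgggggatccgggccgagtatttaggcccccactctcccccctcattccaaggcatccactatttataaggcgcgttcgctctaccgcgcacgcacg
Of these genes, Zfp207, Zfp296 and Zfp42 did not pass the test between genotypes at any stage. The log2 difference of Zfp42, null minus wild type, was 0.03 at E2.5, -0.18 at E3.75 and -0.27 in E4.5 embryos, and that of Zfp296 was -0.01, 0.14 and 0.17. For Zfp207 it was 0.06, 0.12 and 0.12. At E4.5 all 3 null libraries of Zfp42 lay below all 3 wild type libraries (adjusted p = 0.35, limma). The summed epiblast markers of the same libraries were 288 to 345 CPM in null and 510 to 608 CPM in wild type embryos, with no marker past the threshold by itself, and their part in the level of Zfp42 was not tested.

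The comparison of null with wild type embryos asks which Zfp genes depend on Oct4. Values were compared as log2(CPM + 1), null minus wild type, with limma over all genes of a stage and an adjusted p threshold of 0.05. On this scale the change of low genes is understated. At E2.5, 0 of 67 members passed, where 42 of 7082 genes passed (0.593%, of which 0.409% of all genes were higher and 0.184% lower in null embryos). edgeR and DESeq2 on recovered reads called 1 member each, where they called 2.53% and 4.49% of the genes they tested. An unadjusted p under 0.05 was found for 11 members and 20.4% of all genes, and 20 members had groups that did not overlap, against 27.8% of all genes. Of these, 11 were higher in null embryos (13.6% of all genes were) and 9 lower (14.1% of all genes). The median difference was 0.02 for members and -0.02 for all genes.

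Zfp775, a protein with 11 finger patterns and no settled role, had the smallest p at E2.5. It had 187.2, 138.4 and 166.3 CPM in null libraries and 79.6, 110.6 and 90.0 CPM in wild type libraries. Every null library was above every wild type library, by a mean of 164 ± 24.5 against 93.4 ± 15.8 CPM (SD, n = 3 each). The log2 difference was 0.81 (SE 0.17, adjusted p = 0.0558, limma), just short of the threshold. It passed in edgeR's quasi-likelihood test on recovered reads (adjusted p = 0.0305), in DESeq2 (adjusted p = 0.0028), with TMM factors (0.0481) and with DESeq2 size factors (0.0478), the last 2 in limma. With libraries 1 and 2 alone the adjusted p was 0.667, and with 1 library left out it was 0.00563 (without wild type library 2) to 0.307 (without Oct4 null library 3). At E3.75 it had 122.5, 74.9 and 90.4 CPM in null and 77.1, 75.6 and 60.8 CPM in wild type libraries (log2 difference 0.40, adjusted p = 0.186, limma), which overlap. At E4.5 it had 20.4 ± 2.30 CPM in null and 22.6 ± 8.17 CPM in wild type embryos. The overlap with Gm38804 applies to all these values.

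The next smallest p-values at E2.5 were those of Zfp513, Zfp653, Zfp385c and Zfp703. Zfp513 had 32.3, 33.8 and 36.0 CPM in null and 55.6, 69.1 and 48.6 CPM in wild type libraries (log2 difference -0.73, SE 0.21, adjusted p = 0.093, limma). Zfp653 had 8.8, 9.9 and 13 CPM in null and 27.3, 19.6 and 23.5 CPM in wild type libraries (-1.08, SE 0.31, adjusted p = 0.0953). Neither gene's groups overlapped. Zfp385c averaged 120 ± 17 CPM in null and 76.3 ± 22.3 CPM in wild type embryos (0.67, adjusted p = 0.116), and Zfp703, a repressor without a classical finger pattern, averaged 25.1 ± 3.46 CPM in null and 13 ± 4.89 CPM in wild type embryos (0.95, adjusted p = 0.149). Zfp513 ends over Snx17 on the other strand and Zfp653 over Gm49318 on the same strand, so both are uncertain.

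At E3.75, 3 of 59 members passed (1 higher and 2 lower in null embryos), where 545 of 6648 genes passed (8.20%, with 3.60% higher and 4.60% lower). An unadjusted p under 0.05 was found for 12 members and 22.8% of all genes, and 14 members had groups that did not overlap, against 27.2% of all genes. Of these, 6 were higher in null embryos (11.4% of all genes) and 8 lower (15.7% of all genes). edgeR called 3 members and 8.30% of all genes, and DESeq2 0 of the 11 members it tested and 10.5% of genes. The median difference was 0.01 for members and -0.04 for all genes.

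Zfp281, a factor that works with Nanog and Oct4 in stem cells and is needed for the step from naive to primed pluripotency in mouse, rose in null embryos at E3.75. It had 32.4, 29.1 and 25 CPM in null libraries and 9.4, 19.5 and 12.2 CPM in wild type libraries, with no overlap. These stand for 28, 40 and 36 reads in null and 5, 23 and 7 reads in wild type libraries. The log2 difference was 1.07 (SE 0.32, 95% interval 0.41 to 1.73, adjusted p = 0.0403, limma; 0.0483 in edgeR). It was listed at this stage alone.

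Zfp428 and Zfp512, both without a settled role in the embryo, fell in null embryos at E3.75. Zfp428 had 5.8, 10.2 and 12.5 CPM in null libraries and 20.7, 18.7 and 31.2 CPM in wild type libraries, from 5, 14 and 18 reads in null and 11, 22 and 18 reads in wild type libraries. Its log2 difference was -1.25 (SE 0.37, adjusted p = 0.0403, limma; 0.0457 in edgeR). Zfp512 had 6.9, 9.5 and 9.0 CPM in null libraries and 28.2, 16.1 and 20.8 CPM in wild type libraries, from 6, 13 and 13 reads in null and 15, 19 and 12 reads in wild type libraries. Its log2 difference was -1.24 (SE 0.37, adjusted p = 0.0403, limma; 0.0425 in edgeR). No null library of Zfp512 reached the level of listing, so it was in the table through its wild type libraries alone and its difference is favoured by that filter. DESeq2 gave no adjusted p for these 3 genes.

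All of these calls were lost with libraries 1 and 2 alone, at adjusted p = 0.173 for Zfp281, 0.262 for Zfp428 and 0.210 for Zfp512 (limma). Leaving out 1 library also ended each of them in 5 of 6 cases for Zfp281 and Zfp512 and in 4 of 6 for Zfp428, with adjusted p up to 0.171, 0.131 and 0.190. The direction held in every case, as it must where the groups do not overlap. In the same libraries the 3 maternal markers in the table were Hba-a1, Hbb-bt and Lyz2, of 13 in the list. They summed to 105 to 199 CPM in null and 69.6 to 90.8 CPM in wild type embryos. Hba-a1 passed, at 62.8 ± 28.4 CPM in null and 24.0 ± 4.29 CPM in wild type embryos (adjusted p = 0.0052, limma). Hbb-bt and Lyz2 did not pass. Of the oocyte list, Khdc3 and Tcl1 of 11 were in the table. They summed to 1763 to 1910 CPM in null and 2321 to 2540 CPM in wild type embryos. Both genes fell with all 3 libraries of each group (adjusted p = 0.000738 for Khdc3 and 0.0415 for Tcl1, limma). Khdc3 averaged 543 CPM in null and 588 CPM in wild type embryos at E2.5, against 1799 and 2349 CPM at E3.75. Tcl1 was not in the E2.5 table. The sum is that of these 2 genes and is not a measure of oocyte RNA. Trophectoderm markers summed to 7185 to 8151 CPM in null and 8467 to 9613 CPM in wild type embryos, and of the 7 only Tspan8 passed, lower in null embryos. Krt18 averaged 4407 CPM in null and 5135 CPM in wild type embryos, Tspan8 1222 and 1635 CPM, and Krt8 1233 and 1306 CPM. Elf5 had 21.7 and 45.4 CPM and Cdx2 543 and 558 CPM. Gata3 (161 and 159 CPM) and Eomes (174 and 162 CPM) were slightly higher in null embryos. The part of these in the differences was not tested.

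The primitive endoderm and epiblast markers did not move one way at E3.75. The primitive endoderm sum was 1432 to 1565 CPM in null and 1246 to 1386 CPM in wild type embryos, of which Dab2, an endocytic adaptor, made up 986 ± 53.2 CPM in null and 630 ± 42.4 CPM in wild type embryos (SD, n = 3 each). Of the 8 markers, Dab2 and Col4a1 rose, at log2 differences of 0.65 and 0.43, and Lama1, Lamb1, Pdgfra and Sox17 fell, at -1.13, -0.98, -1.37 and -1.24 (limma). With libraries 1 and 2 alone Col4a1 did not pass (adjusted p = 0.501) and the other 5 did. Pdgfra, a receptor that marks this lineage, had 9.73 ± 3.52 CPM in null and 26.1 ± 6.83 CPM in wild type embryos. The summed epiblast markers were 520 to 529 CPM in null and 509 to 615 CPM in wild type embryos. Of these 5 genes Nanog rose, at 349 ± 23.2 CPM in null and 212 ± 33.5 CPM in wild type embryos (log2 difference 0.73, adjusted p = 0.000566, limma), and Spp1, Tdgf1, Fgf4 and Esrrb fell, at -1.13, -0.95, -0.92 and -0.62. With libraries 1 and 2 alone Fgf4 (adjusted p = 0.0815) and Esrrb (0.167) did not pass. The part of these markers in the Zfp differences was not tested either, and in such bulk libraries fewer cells of a type and less RNA per cell cannot be told apart.

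At E2.5, where both were listed, Zfp428 had 22.8, 8.3 and 11 CPM in null and 25.1, 15 and 17 CPM in wild type libraries (log2 difference -0.50, adjusted p = 0.50, limma). Zfp512 had 10.3, 3.6 and 4.7 CPM in null and 13.1, 8.1 and 13.8 CPM in wild type libraries (-0.89, adjusted p = 0.291). The groups of both genes overlapped.

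Zfp819, a KRAB protein known for repressing retroelements in mouse pluripotent cells, missed the threshold at E3.75. It had 2.3, 11.6 and 13.2 CPM in null libraries and 16.9, 20.4 and 26 CPM in wild type libraries (log2 difference -1.37, SE 0.46, adjusted p = 0.0697, limma), with no overlap. It passed without Oct4 null library 2 (adjusted p = 0.0499) or 3 (0.0442). Without Oct4 null library 1, the lowest, the difference was -0.70 (adjusted p = 0.336), and with libraries 1 and 2 alone the adjusted p was 0.159. Zfp35 had 17.3, 23.3 and 18.8 CPM in null and 28.2, 34.8 and 38.2 CPM in wild type libraries (-0.74, adjusted p = 0.0903, limma). These 2 genes and Zfp775 at E3.75 were chosen after their values were seen.

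**Figure D4:**
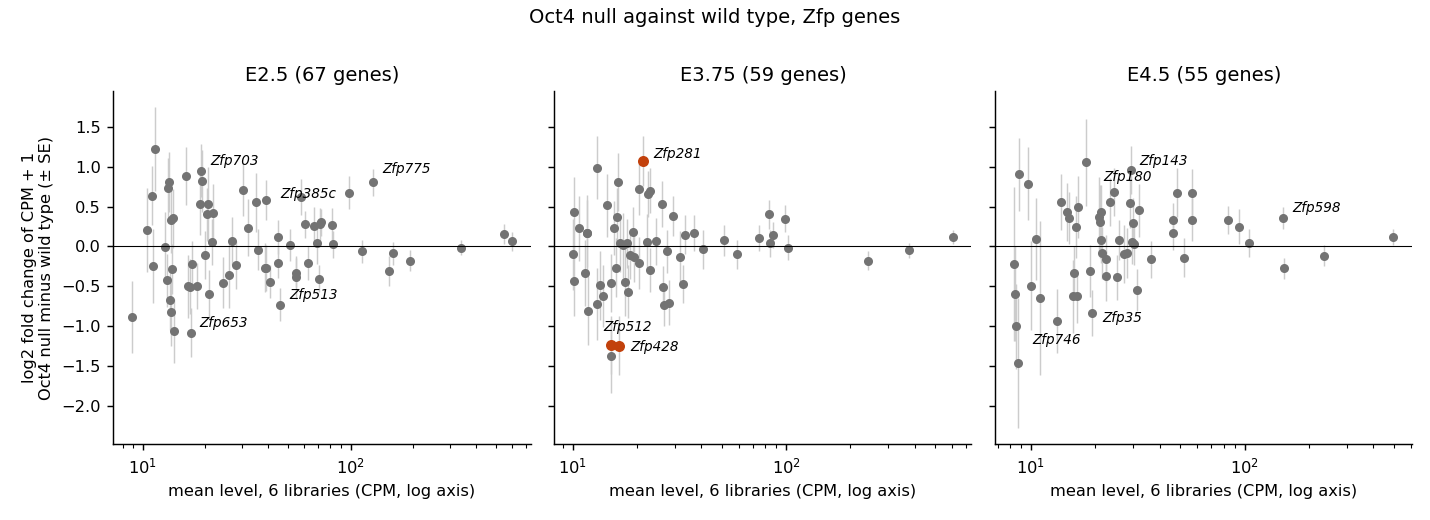
Log2 fold change of CPM + 1, Oct4 null minus wild type (vertical axis, bars show the SE), against mean CPM of 6 libraries (log axis) for the members of each stage table. Orange marks members past the adjusted p threshold, Zfp281, Zfp428 and Zfp512 at E3.75. At E2.5 and E4.5 none passed and the 5 with the smallest p are labelled.

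At E4.5, 0 of 55 members and 0 of 6545 genes passed in limma (0%). An unadjusted p under 0.05 was found for 6 members and 15.0% of all genes, and 15 members had groups that did not overlap, against 22.2% of all genes. Of these, 9 were higher in null embryos (12.2% of all genes) and 6 lower (9.99% of all genes). They include Zfp516 and Zfp623, listed through their null libraries alone, and Zfp639, listed through its wild type libraries alone, so the filter on listing favours separation for these 3. edgeR called 0 members and 0.642% of all genes, and DESeq2 0 of the 7 members it tested and 4.29% of genes. The median difference was 0.08 for members and 0.06 for all genes.

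Zfp143, an activator at many housekeeping and small RNA promoters, had the smallest p at E4.5. It had 24.7, 46.4 and 47.7 CPM in null libraries and 18.4, 21.3 and 17.5 CPM in wild type libraries. Every null library was above every wild type library, and the log2 difference was 0.96 (SE 0.30, adjusted p = 0.193, limma; 0.0693 in edgeR). Without Oct4 null library 1 the adjusted p was 0.0396, and with any other single library left out it was 0.163 to 0.516. At E2.5 it averaged 34.2 ± 8.03 CPM in null and 43.1 ± 19.0 CPM in wild type embryos, and at E3.75 17.7 ± 8.06 CPM in null and 11.1 ± 1.52 CPM in wild type embryos. Its end lies over 1600010M07Rik on the other strand, so its values are uncertain.

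Zfp35 had 13.7, 12.2 and 14.9 CPM in null and 25.8, 25.2 and 23.9 CPM in wild type libraries at E4.5 (log2 difference -0.84, SE 0.29, adjusted p = 0.217, limma). Its groups did not overlap, as at E3.75. The E4.5 values stand for 5, 16 and 20 reads in null and 14, 13 and 26 reads in wild type libraries. At such counts the narrow span of the wild type libraries is no measure of precision. Zfp598 had 186.3, 167.3 and 157.8 CPM in null and 130.7, 135.7 and 130.5 CPM in wild type libraries (0.36, SE 0.14, adjusted p = 0.248). Zfp746, the PARIS repressor of PGC-1α, averaged 9.08 ± 4 CPM in null and 17.5 ± 2.78 CPM in wild type embryos (-0.93, adjusted p = 0.303), and Zfp180 averaged 29.96 ± 2.33 CPM in null and 18.8 ± 6.17 CPM in wild type embryos (0.69, adjusted p = 0.314). At this stage the summed epiblast markers differed, with Spp1 and Tdgf1 apart, as given beside Zfp42. The maternal markers (Hba-a1, Hbb-bt and Vim of 13) summed to 56.3 to 367 CPM in null and 60.8 to 83.4 CPM in wild type embryos. The part of the epiblast and maternal markers in the values of these members was not tested.

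**Figure D5:**
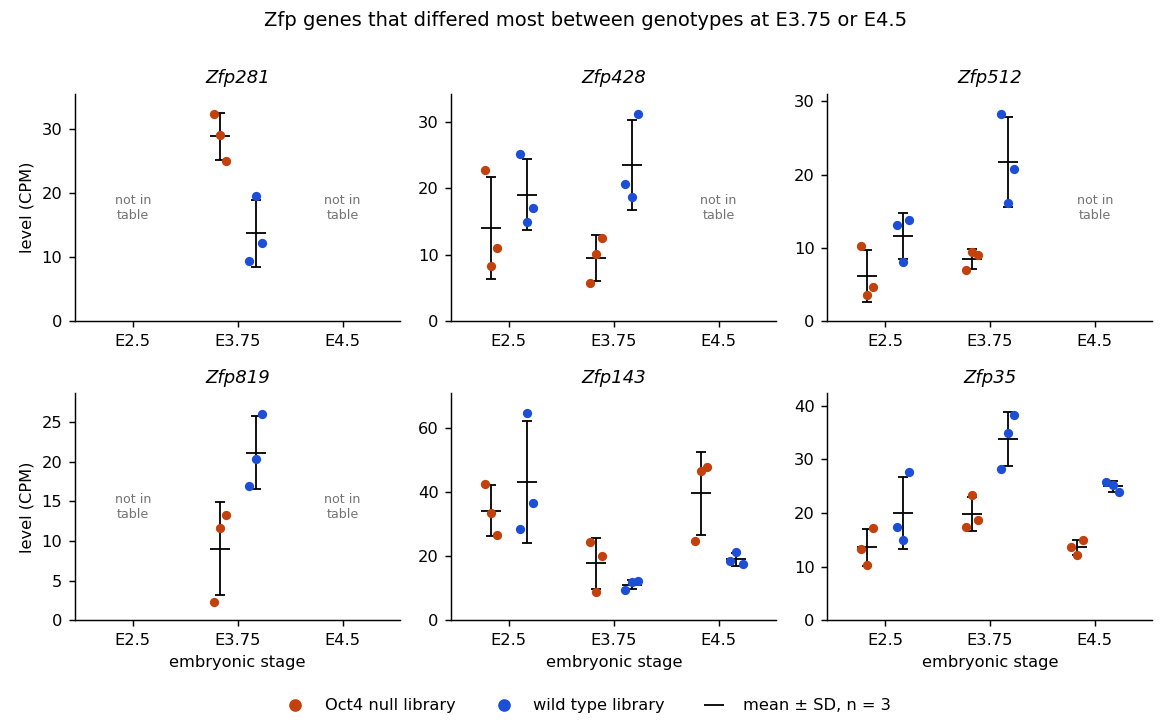
Level in CPM (vertical axis) in each library of Zfp281, Zfp428, Zfp512, Zfp819, Zfp143 and Zfp35 at each stage, Oct4 null left of wild type, with mean and SD of 3 libraries. The groups stand apart at E3.75 for Zfp281, Zfp428, Zfp512, Zfp819 and Zfp35, and at E4.5 for Zfp143 and Zfp35, where the wild type libraries of Zfp35 span 23.9 to 25.8 CPM.

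Zfp143 reads a known DNA motif whose core is ACTACA, any 2 bases and TCCC, and Zfp promoters are among the places that hold it. It was found on either strand in 5 of the 76 member promoters (6.579%), in 1.811% of all promoters, and in 16.67% of the 330 promoters of Zfp genes outside the tables. The windows of 30 bases are shown to let the shared core be seen, in capitals, as read or as its reverse complement. They lie at chr7:24081865-24081894 (Zfp180, plus strand), chr14:52019700-52019729 (Zfp219, minus), chr7:6172364-6172393 (Zfp444, plus), chr7:30090566-30090595 (Zfp566, minus) and chr4:119174354-119174383 (Zfp691, minus).
Zfp180: gagagttctGGGAATTGTAGTtccattgag
Zfp219: gggcatcctGGGATTTGTAGTctcgggtga
Zfp444: atgtttcttGGGAGATGTAGTttccagctg
Zfp566: ctcggactgACTACATTTCCCagagggctc
Zfp691: aacctccgaACTACAACTCCCagcatgccg
At E4.5, Zfp180, Zfp219 and Zfp444 were listed, with log2 differences of 0.69, 0.56 and 0.44, none past the threshold. At E3.75, where Zfp143 had 0.52, Zfp180 had 0.04 and Zfp219 -0.71. At E2.5, where Zfp143 had -0.27, Zfp180, Zfp219 and Zfp444 had 0.28, -0.04 and 1.22. None of these passed either. Zfp566 and Zfp691 were listed at E2.5 alone, with differences of 0.40 and -0.10. The motif was chosen after the values of Zfp143 were seen.

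Whether the genotype effect differed between stages was tested for the 43 members of all tables, over all 18 libraries in limma. No member passed in any of the 3 contrasts, where 61 of 5430 genes passed for E3.75 minus E2.5 (1.12%), 5 for E4.5 minus E3.75 (0.0921%) and 55 for E4.5 minus E2.5 (1.01%). An unadjusted p under 0.05 was found for 5, 3 and 9 members in these contrasts, beside 13.9%, 14.3% and 17.1% of the genes. The smallest p-values were those of Zfp219 between E4.5 and E3.75 (difference 1.26, SE 0.42, adjusted p = 0.187), Zfp106 between E4.5 and E2.5 (0.73, SE 0.26, adjusted p = 0.154) and Zfp775 between E4.5 and E2.5 (-0.89, adjusted p = 0.163). Zfp281, Zfp428 and Zfp512 are not in all tables, so this test did not cover them.

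By role, the single call among the pluripotency and early embryo factors was Zfp281, 1 of 10 in the table at E3.75, with 0 of 10 at E2.5 and 0 of 10 at E4.5. The shares called among all genes were 0.593%, 8.20% and 0% in the stages' order, and the counts of all lists here stand beside these. Among RNA processing and translation genes 0 of 6, 0 of 6 and 0 of 5 passed at the 3 stages. Among KRAB proteins known for imprints and retroelements 0 of 3, 0 of 4 and 0 of 2 passed. Of partners of the family, the KRAB co-repressor and heterochromatin list had 1 of 21 genes lower at E2.5, the histone deacetylase Hdac2, at 149 ± 5.99 CPM in null and 242 ± 35.0 CPM in wild type embryos (adjusted p = 0.044, limma). That call was lost with libraries 1 and 2 alone (adjusted p = 0.667) and without any 1 null library or wild type library 3 (0.128 to 0.244). At E3.75 1 of 19 was lower, the heterochromatin protein Cbx5, at 117 ± 12.7 CPM in null and 161 ± 11.8 CPM in wild type embryos (adjusted p = 0.0405), and 1 higher, Dppa3, at 1396 ± 37.2 CPM in null and 1125 ± 127 CPM in wild type embryos (adjusted p = 0.0141). With libraries 1 and 2 alone neither passed (adjusted p = 0.192 for Cbx5 and 0.0971 for Dppa3), and with 1 library left out Cbx5 was lost in 5 of 6 cases and Dppa3 in 2. At E4.5 0 of 20 passed. Trim28 did not pass at any stage, with log2 differences of 0.06, -0.12 and -0.22. Of the deadenylation list 0 of 18, 0 of 16 and 0 of 16 passed. Of other named zinc finger factors 0 of 13 passed at E2.5, 1 of 14 at E3.75, Klf2, lower at 37 ± 7.73 CPM in null against 67.4 ± 9.29 CPM in wild type embryos (adjusted p = 0.0124), and 0 of 16 at E4.5. Klf2 did not pass with libraries 1 and 2 alone (adjusted p = 0.256), and 1 library left out ended its call in 3 of 6 cases.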

How the data were processed

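RNA of 18 embryo libraries was primed with oligo(dT) and amplified next to the polyA tail, per the labels' protocols. The values are CPM as the authors deposited them, in a table for each stage. Tools and builds named by the submitters' processing notes are edgeR and mm9. The aligner, the annotation and whether strand was used: not given in the sources used here. Columns sum to 1000000 within a table, so stages were scaled separately. All 121650 values were whole multiples of 1 read (100%, within 0.01 reads), which gave depths. The 3 wild type columns of E4.5 share a header, so these libraries have no number.

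Symbols were matched by ID (8068 of 8202 genes; GENCODE M21). The test was that of limma 3.58.1 in R 4.3.3, with a variance trend, on log2(CPM + 1), two-sided, with Benjamini-Hochberg adjustment over each table. edgeR 4.0.16 and DESeq2 1.42.0 on recovered reads, pseudocounts of 0.1 and 5, a mean of 10 CPM, TMM and DESeq2 size factors, left-out libraries and a replicate block were alternatives. The fits of genes outside the family under these alternatives were chosen after seeing the data. The limma steps were tested on simulated data. Labels do not say that replicates came from separate litters. The p-values therefore cover only the spread among these libraries, which may be technical.

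Genes named were Pou5f1, at each stage the 10 best expressed members, the 6 best expressed that left or entered each table, members past the threshold or else the 5 with the smallest p, the 3 smallest interaction p-values, and role list members. Members, lists and motifs were chosen with earlier results of these data known. KRAB A boxes were called at 8 or more of 9 conserved positions. The order per transcript length was added after seeing the data, and a length was known for 58 of 67, 49 of 59 and 47 of 55 members in the stages' order.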

Additional observations from a re-analysis of the deposited data

Results flagged for a closer look

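Zfp106, an RNA-binding protein, was flagged because its genotypes did not overlap in opposite directions at E2.5 and E4.5. The log2 difference, null minus wild type, was -0.40 at E2.5 (58.7, 65.0 and 56.8 CPM in null, 86.2, 71.4 and 82.7 CPM in wild type libraries) and 0.33 at E4.5 (46.6, 50.2 and 58.1 CPM in null, 35.0, 42.7 and 45.0 CPM in wild type libraries). The test of the difference did not pass (0.73, SE 0.26, adjusted p = 0.154, limma). Of all genes, 14.1% lay apart and lower in null embryos at E2.5, and 12.2% apart and higher at E4.5. The share of genes that did both was not counted, so Zfp106 is not shown to be unusual.

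Zfp219 did the same between E3.75 and E4.5. The log2 difference was -0.71 at E3.75 (13.9, 24.0 and 26.4 CPM in null, 28.2, 33.1 and 43.4 CPM in wild type libraries) and 0.56 at E4.5 (19.2, 12.9 and 17.9 CPM in null, 11, 9.7 and 11.9 CPM in wild type libraries). The test of the difference gave 1.26 (SE 0.42, adjusted p = 0.187, limma). Of all genes, 15.7% lay apart and lower in null embryos at E3.75, and 12.2% apart and higher at E4.5, and the share with both was not counted. Zfp219 ends over Arhgef40 on the other strand.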

How the results depend on the processing

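The number of Zfp genes called at E2.5, 0 in limma, was 1 (Zfp775) with TMM factors, with DESeq2 size factors, in edgeR and in DESeq2, and 0 to 4 with 1 library left out. The 4, without wild type library 2, were Zfp775, Zfp593, Zfp653 and Zfp740. At E3.75 the 3 calls became 0 with libraries 1 and 2 of each group, 0 in DESeq2 (which tested 11 members) and 0 to 3 with 1 library left out. At E4.5 the 0 calls became 0 to 1, the 1 being Zfp143 without Oct4 null library 1. No member's effect differed between stages under any alternative. Asking for a mean of 20 CPM left 42 of 67, 30 of 59 and 34 of 55 members in the stages' order. None of 574 recomputed single gene differences changed sign. These were of Pou5f1 and of genes picked mostly for a small p or after their values were seen. Where groups do not overlap, leaving out libraries cannot change the sign, so the 574 say little about such genes. Members outside this set did change sign between limma and edgeR. Among them were Zfp296 (-0.01 and 0.01) and Zfp219 (-0.04 and 0.03) at E2.5 and Zfp414 (-0.64 and 0.41) at E4.5. With the replicate block, 1 member (Zfp428) was called at E3.75, against 3 without, and 0 at E2.5. Deviations of libraries with the same number correlated at 0.034, 0.125 and -0.0015 at E2.5 and -0.033, -0.047 and 0.0088 at E3.75. Those of libraries with different numbers ran from -0.087 to 0.083 at E2.5 and from -0.013 to 0.052 at E3.75. With library 3 nearly a mean of its partners, these values cannot decide whether a number stands for a shared litter or batch. At E4.5 the block and the fit of libraries 1 and 2 were not run, since the wild type columns carry no number. Depth was a limit, since 17, 36 and 37 members in the stages' order had under 10 reads in at least 1 library.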
